A study of Mus musculus with 24 samples.

Results

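The genes described here encode 10 inflammatory and regulatory cytokines or their soluble antagonists, *Il1a*, *Il1b*, *Il1rn*, *Tnf*, *Il6*, *Il10*, *Il18*, *Il18bp*, *Il12b* and *Osm*. They were chosen by symbol, and all 10 were found once among the 48820 entries of each of 4 RNA-seq count tables. The tables hold 24 mouse libraries in 8 groups of 3. Gdf2/Bmp10 HSC-KO mice carry floxed *Gdf2* and *Bmp10* alleles deleted by Lrat-Cre, which acts in hepatic stellate cells (HSCs). Liver macrophages (CD45+Ly6C-F4/80+CD64+) and hepatic endothelial cells (ECs, CD45-CD31+) were sorted from HSC-KO and control mice aged 8 to 10 weeks, and whole livers were taken from HSC-KO and control mice aged 12 weeks. In a separate experiment, macrophages of the same gate came from mice aged 8 to 10 weeks in which floxed *Smad4* was deleted by Vav1-Cre, a driver active in all hematopoietic cells (Smad4 cKO), and from their controls, labelled Smad4FF. The mice were of the C57BL/6 strain, and the labels do not spell out the genotype of the HSC-KO controls. The 12 EC and macrophage libraries of the HSC-KO experiment include 3 mice that, by their labels, were used for both sorts.

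Cytokines of the IL-1 family are made by macrophages and other myeloid cells and, for some members, by endothelial, epithelial and stromal cells, and act through NF-kB on cells that carry their receptors. IL-1α and IL-1β share a receptor, and the antagonist encoded by *Il1rn* occupies it without signalling. IL-18 acts on lymphocytes and is held inactive in the circulation by the binding protein encoded by *Il18bp*. IL-6 and oncostatin M use the shared receptor chain gp130 and are known in the liver as inducers of the acute phase response of hepatocytes, while IL-10 limits the output of inflammatory cytokines by macrophages. Resident liver macrophages, the Kupffer cells (KCs), are kept in their state by GDF2 and BMP10 from HSCs, which signal through ALK1 and SMAD4.

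Library totals ranged from 60911527 to 110879155 counts, with a median of 85451301, and 17497 to 21626 genes had a count. At these depths, 3 counts corresponded to 0.0258 to 0.0524 CPM (counts scaled to the library size), so that levels below this range were not measurable. The deletions were visible in the tables that could show them. *Smad4* was lower in Smad4 cKO macrophages (log2 fold change -1.39, adjusted p = 0.0023 by the Benjamini-Hochberg (BH) method in the quasi-likelihood test of edgeR), and *Gdf2* and *Bmp10* were lower in HSC-KO livers (-2.55 and -4.07, BH-adjusted p = 0.013 and 0.0066 in the same test). The summed level of 8 macrophage and KC markers fell from 35307 to 38343 CPM in control macrophages to 5302 to 5859 CPM in HSC-KO macrophages, and from 28953 to 36229 CPM in Smad4FF to 5187 to 6304 CPM in Smad4 cKO macrophages. Of the 8 markers, 4 were lower DEGs in HSC-KO and 5 in Smad4 cKO macrophages. The general macrophage marker *Cd68* went from 2099.5 ± 116 CPM (mean ± SD) to 1262 ± 277 CPM with the HSC deletion, and was at 2552 ± 480.5 CPM in Smad4FF and 2134 ± 236 CPM in Smad4 cKO macrophages. *Adgre1*, which encodes F4/80, was at 1010.2 ± 94.8 and 685 ± 50.0 CPM and at 474 ± 25.2 and 191 ± 28.6 CPM in the same order. *Fcgr1*, which encodes CD64, was at 317 ± 24.7 and 333 ± 76.5 CPM and at 293 ± 73.1 and 179 ± 58.1 CPM in that order. The largest parts of the control sums were the KC genes *Clec4f* and *Cd5l*. They were at 11723.5 and 12156.5 CPM in control and at 12895 and 8873 CPM in Smad4FF macrophages. In the HSC-KO and Smad4 cKO macrophages, *Clec4f* was at 9.32 ± 6.72 and 0.566 ± 0.789 CPM and *Cd5l* at 41.1 ± 48.1 and 63.3 ± 34.5 CPM. In these bulk samples, fewer cells of a type and less RNA per cell cannot be told apart.

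Promoter sequences of 8 of the 10 genes were found in the RefSeq table for GRCm38.p6, as windows of 300 bases from 250 bases before to 50 bases after the annotated start. *Il10* and *Osm* had no entry. The windows of 4 genes that were lower in more than 1 of the comparisons described below, and that held a searched motif, are shown 5′ to 3′ on the strand of the gene. Capitals mark matches to the AP-1 motif TGANTCA, the C/EBP motif TTGCNNAA or the NF-kB consensus on either strand.
Il18bp, chr7:102018183-102018482, minus strand: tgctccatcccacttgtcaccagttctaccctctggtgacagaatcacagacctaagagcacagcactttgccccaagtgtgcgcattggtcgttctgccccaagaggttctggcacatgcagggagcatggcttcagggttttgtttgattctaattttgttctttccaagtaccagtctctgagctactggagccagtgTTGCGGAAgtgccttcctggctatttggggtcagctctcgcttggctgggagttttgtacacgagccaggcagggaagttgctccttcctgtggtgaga
Il1rn, chr2:24336610-24336909, plus strand: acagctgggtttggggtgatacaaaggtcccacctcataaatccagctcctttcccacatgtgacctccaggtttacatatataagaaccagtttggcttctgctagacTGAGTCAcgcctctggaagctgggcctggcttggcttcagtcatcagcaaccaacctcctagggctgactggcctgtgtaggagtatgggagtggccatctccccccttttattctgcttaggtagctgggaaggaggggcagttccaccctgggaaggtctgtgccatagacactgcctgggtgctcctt
Il6, chr5:30012864-30013163, plus strand: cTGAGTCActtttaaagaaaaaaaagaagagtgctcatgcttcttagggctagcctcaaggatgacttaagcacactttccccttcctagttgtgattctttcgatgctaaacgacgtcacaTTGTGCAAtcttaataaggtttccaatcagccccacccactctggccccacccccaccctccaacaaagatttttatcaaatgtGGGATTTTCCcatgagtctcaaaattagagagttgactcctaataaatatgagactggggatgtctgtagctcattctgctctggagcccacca
Il1a, chr2:129309923-129310222, minus strand: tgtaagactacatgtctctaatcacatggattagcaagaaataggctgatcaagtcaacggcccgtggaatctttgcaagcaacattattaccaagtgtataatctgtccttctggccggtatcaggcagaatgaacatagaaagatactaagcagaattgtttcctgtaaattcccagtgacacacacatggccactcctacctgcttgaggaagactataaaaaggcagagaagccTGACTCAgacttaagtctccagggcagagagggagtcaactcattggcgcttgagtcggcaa

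The AP-1 letters began at base -12 relative to the start in *Il1a*, at -141 in the most upstream of 3 *Il1rn* windows and at -249 in *Il6*. The C/EBP letters began at -128 in *Il6* and at -49 in *Il18bp*, and the NF-kB consensus began at -44 in *Il6*, the only one of the 10 windows with all 3 motifs. Among 32851 promoter windows of the same length, 7.81% held the AP-1 letters, 10.8% the C/EBP letters and 4.51% the NF-kB consensus. The interferon response letters GAAANNGAA, the BMP-Smad letters GGCGCC and the PU.1 letters GAGGAAGT were in 8.56%, 11.9% and 3.20% of all windows and in none of the 10 windows of these genes. No 2 of the motifs overlapped in the sequences shown. A match is a description of the letters and not of a bound factor, and a window without a match says only that those letters are absent from it.

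**Figure D1:**
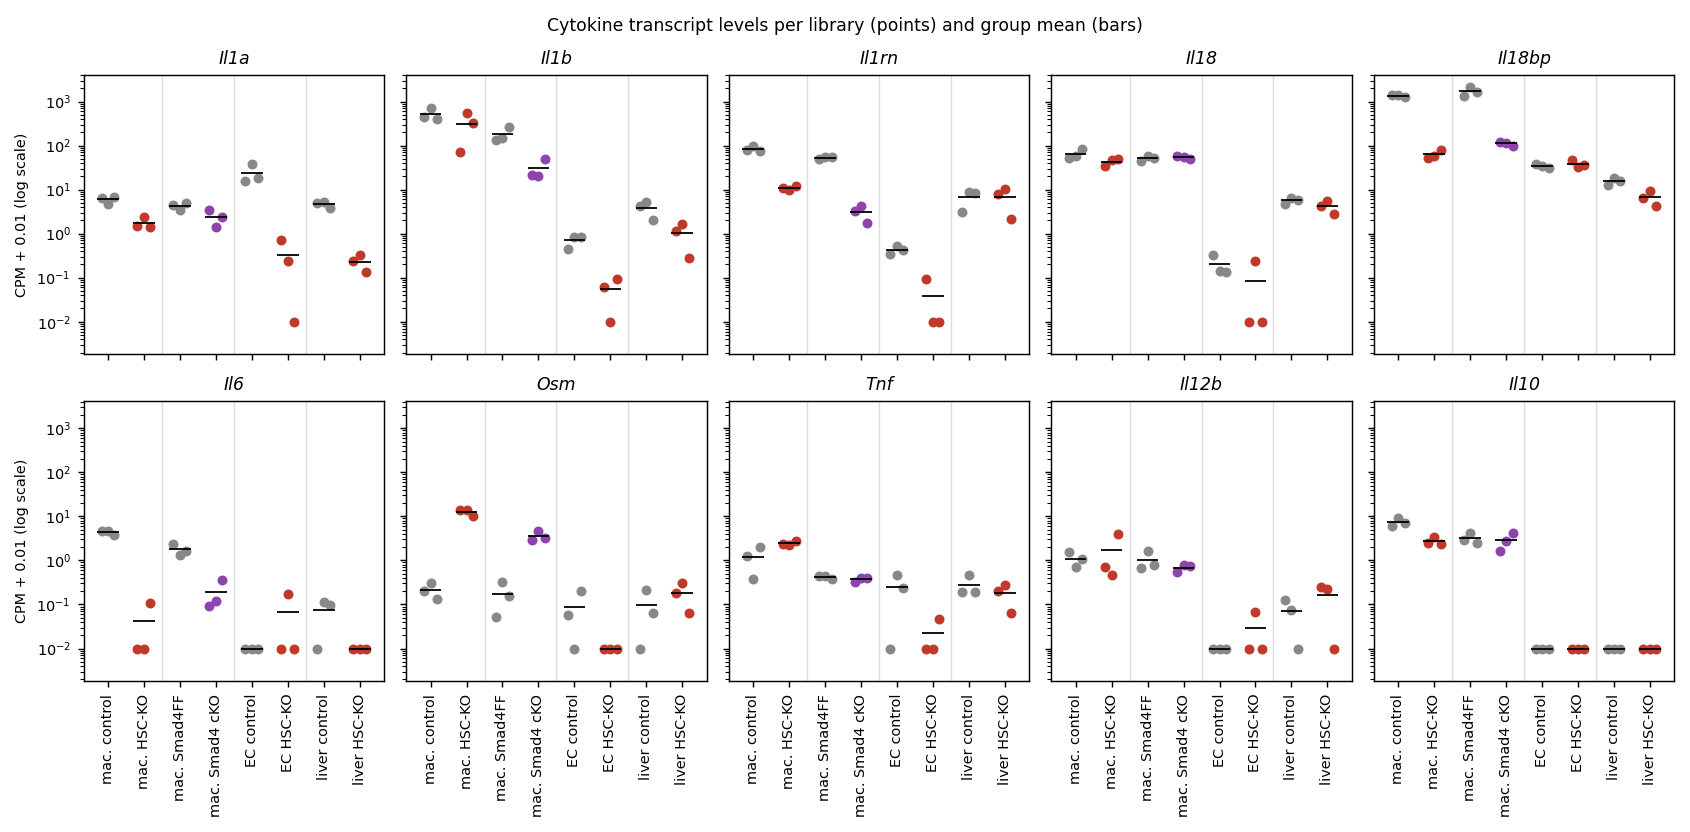
Levels of the 10 cytokine transcripts in 24 libraries. Each point is 1 library (CPM plus 0.01, log scale), each bar the mean of 3 libraries, and points at 0.01 have no count. *Il18bp* and *Il1rn* were lower and *Osm* higher in both kinds of mutant macrophages (mac.) than in their controls, while *Il18* lay between 33.9 and 83.2 CPM in all 12 macrophage libraries.

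The first comparison asks how macrophage cytokine transcripts differ when HSCs lack GDF2 and BMP10. A gene was counted as a differentially expressed gene (DEG) when the edgeR quasi-likelihood test put its BH-adjusted p under 0.05 and its log2 fold change was past 1 in either direction. In HSC-KO macrophages, *Il18bp*, *Il1rn*, *Il6*, *Il1a* and *Il10* were lower and *Osm* was higher, so that 6 of the 10 genes were DEGs. Over all 16337 genes tested, 5.34% were lower and 6.32% higher DEGs. For 8 of the 10 genes the groups did not overlap, against 40.3% of all genes tested. The median log2 fold change of the 10 genes was -1.09, against 0.04 for all genes. *Il6* passed the filter for low counts through the control libraries alone and *Osm* through the HSC-KO libraries alone. Each was thus tested because of the group in which it was high, and nothing is read from the counts of DEGs and of groups without overlap.

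The second comparison asks the same of macrophages that lack SMAD4 themselves. *Il18bp*, *Il1rn*, *Il6* and *Il1b* were lower and *Osm* was higher in Smad4 cKO macrophages, 5 DEGs among the 10 genes. Of the 17517 genes tested, 2.67% were lower and 2.76% higher DEGs. For 6 of the 10 genes the groups did not overlap, against 29.4% of all genes tested, and the median log2 fold change of the 10 genes was -0.73, against 0.04 for all genes. *Il18bp*, *Il1rn*, *Il6* and *Osm* were thus DEGs of the same direction in both experiments, whose libraries are separate. Here too, *Il6* passed the filter through the Smad4FF libraries alone and *Osm* through the Smad4 cKO libraries alone. Nothing is therefore read from the counts of DEGs and of groups without overlap. Whether the 2 mutants differed was tested as an interaction over the 12 macrophage libraries, where none of the 10 genes and 2.61% of 18149 genes were called. Of the 10 genes, 6 had an unadjusted p below 0.05 in that edgeR test, and DESeq2 called 2, *Il1rn* and *Il6*.

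**Figure D2:**
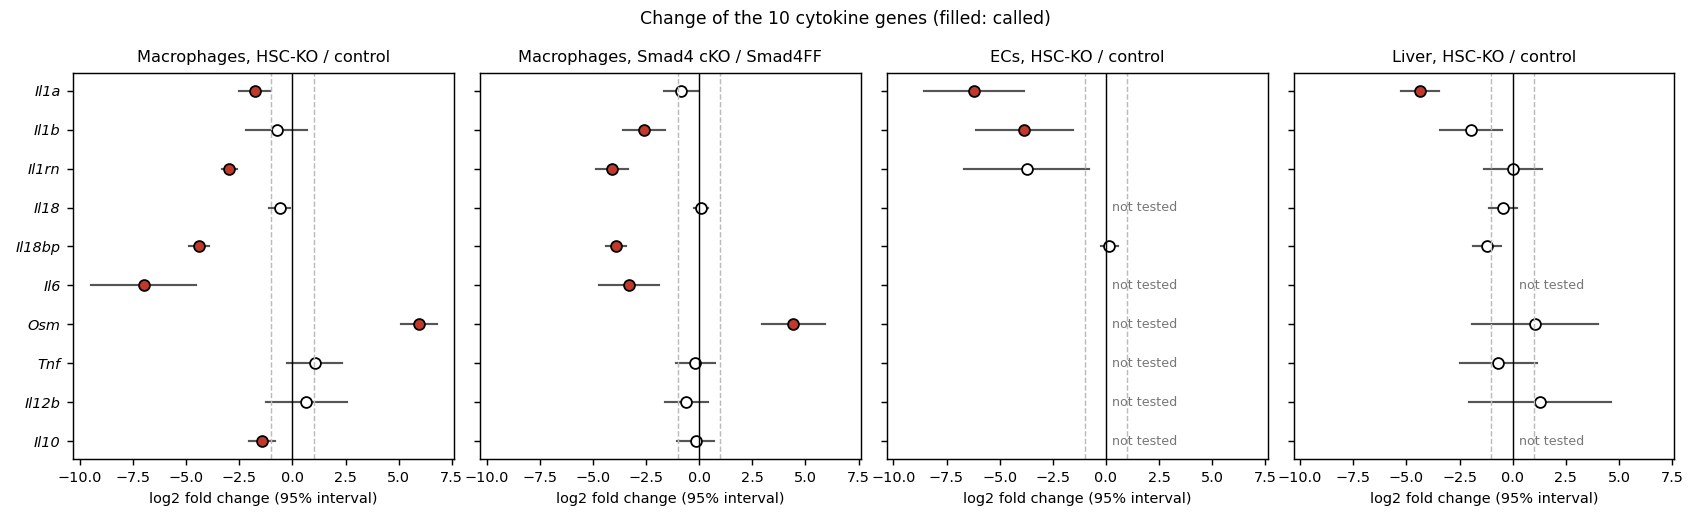
Log2 fold changes of the 10 genes in the 4 comparisons, from edgeR's quasi-likelihood fits. Circles are estimates, lines are 95% intervals, filled circles are DEGs and dashed lines mark log2 fold changes of -1 and 1. *Il18bp*, *Il1rn* and *Il6* lie left of -1 and *Osm* right of 1 in both macrophage panels, and *Il1a* is the gene with the lowest estimate in ECs and livers.

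*Il18bp*, on chromosome 7 (chr7:102014885-102018690, minus strand of GRCm38 in GENCODE vM21), was the most abundant of these transcripts per length in control macrophages, at 448 ± 28.7 CPM per kilobase of exon. Its level was 1376, 1431 and 1261 CPM in the 3 control libraries and 53.1, 57.7 and 80.6 CPM in the HSC-KO libraries. With *Smad4* deleted, the levels compared were 1329.6, 2109 and 1629 CPM in Smad4FF against 122, 114 and 98.6 CPM in Smad4 cKO macrophages. Every mutant library thus lay more than a factor of 10 below every library of its controls. The difference was 21.3-fold in HSC-KO macrophages (log2 fold change -4.41, standard error (SE) 0.20, BH-adjusted p = 3.7e-05 in edgeR's test) and 15.1-fold in Smad4 cKO macrophages (-3.92, SE 0.21, BH-adjusted p = 1e-04 in edgeR's test). The 2 differences were -0.44 apart on the log2 scale (95% interval -1.04 to 0.15, BH-adjusted p = 0.46 in the edgeR interaction test).

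ECs also carried *Il18bp* transcripts. The levels were 38.2, 34.2 and 31.4 CPM in control ECs and 46.9, 33.4 and 35.9 CPM in HSC-KO ECs, and the groups overlapped (log2 fold change 0.16, 95% interval -0.23 to 0.56, BH-adjusted p = 0.57 in edgeR's test). The change in macrophages differed from that in ECs by -4.56 on the log2 scale (SE 0.28, BH-adjusted p = 6e-06 in edgeR's interaction test). In HSC-KO macrophages the remaining level was of the same order as in ECs, with each of the 3 libraries above the EC range of both groups. In whole livers the levels were 12.6, 18.1 and 15.5 CPM in controls and 6.39, 9.11 and 4.33 CPM in HSC-KO mice. The liver groups did not overlap, but the difference was not called (-1.22, SE 0.28, BH-adjusted p = 0.071 in edgeR's test). DESeq2 called it (-1.21, BH-adjusted p = 9e-04), as did edgeR without HSC-KO liver replicate 2 (-1.52, BH-adjusted p = 0.046). Of the exon bases of *Il18bp*, 2.64% overlap exons of *Numa1* on the other strand, and the use of strand in counting was not given.

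The cytokine that this protein binds, encoded by *Il18* (chr9:50554827-50581840, plus strand), did not follow it. *Il18* was at 53.2, 59.2 and 83.2 CPM in control macrophages and at 33.9, 46.1 and 49.1 CPM in HSC-KO macrophages. The 2 groups did not overlap, yet the log2 fold change of -0.60 (95% interval -1.09 to -0.11) was not called (BH-adjusted p = 0.087 in edgeR's test). In the Smad4 experiment the levels were 44.3, 58.1 and 51.1 CPM in controls and 57.6, 55.6 and 48.4 CPM in Smad4 cKO macrophages. These overlapped, with a log2 fold change of 0.07 (95% interval -0.25 to 0.40) that excludes a change of the size seen in *Il18bp*. The livers held 4.59 to 6.55 CPM in controls and 2.77 to 5.49 CPM in HSC-KO mice, and the ECs at most 26 counts.

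The balance of the pair was therefore set within each library as a ratio of CPM per kilobase, which no scaling between libraries can move. Control macrophages had a ratio of *Il18bp* to *Il18* of 7.41 ± 1.96 (range 5.16 to 8.81), and HSC-KO macrophages 0.507 ± 0.0706 (range 0.426 to 0.559). Smad4FF macrophages had 11.2 ± 1.10 and Smad4 cKO macrophages 0.706 ± 0.0160. In both experiments the ratio was above 1 in every control library and below 1 in every mutant library. The side of 1 depends on the exon lengths used, 3026 bp for *Il18bp* and 1031 bp for *Il18*, each joining all annotated exons. In counts, *Il18bp* exceeded *Il18* in every mutant macrophage library, at 4662 against 2972 in HSC-KO replicate 1. The fold differences between the groups do not depend on these lengths. The ratio was 14.3-fold lower in HSC-KO and 15.8-fold lower in Smad4 cKO macrophages. In livers it was 0.922 ± 0.0286 in controls and 0.534 ± 0.0315 in HSC-KO mice. None of these 3 pairs of groups overlapped, and each gave p = 0.1 in a two-sided exact permutation test, the smallest p that 3 against 3 libraries allow.

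**Figure D3:**
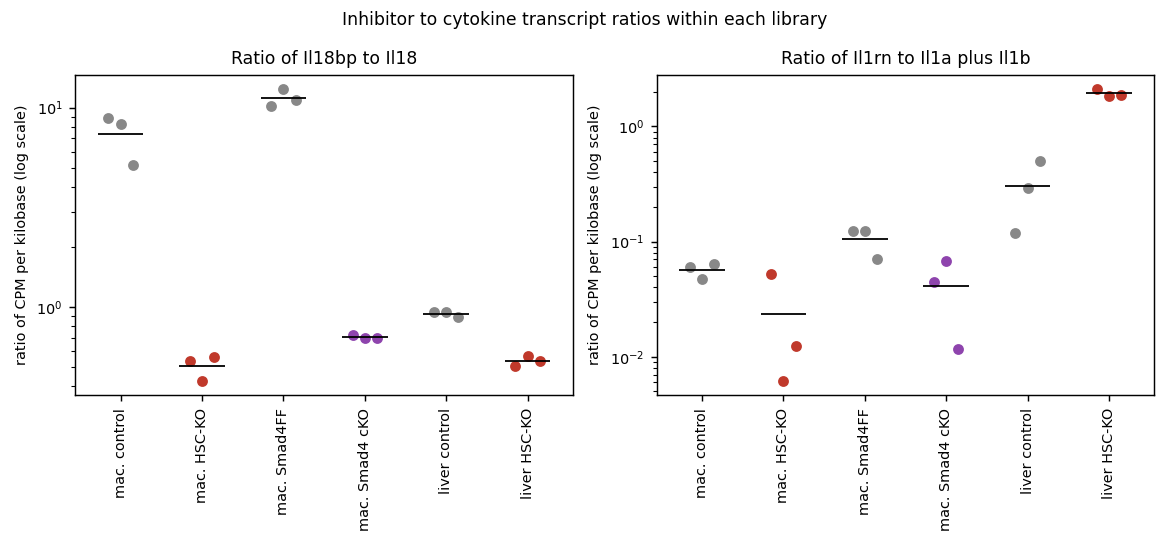
Ratio of *Il18bp* to *Il18* (left) and of *Il1rn* to *Il1a* plus *Il1b* (right) within each library, in CPM per kilobase on a log scale. Points are libraries and bars are means of 3. The left ratio is above 5 in the 6 control macrophage (mac.) libraries and below 1 in the 6 mutant ones, and the right ratio is highest in HSC-KO livers, at 1.84 to 2.11.

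*Il1rn* (chr2:24336853-24351494, plus strand), the receptor antagonist, fell in both kinds of mutant macrophages. It was at 80.5, 98.3 and 75.7 CPM in control and 10.8, 9.84 and 11.8 CPM in HSC-KO macrophages. In Smad4FF macrophages it was at 49.8, 54.1 and 55.6 CPM and in Smad4 cKO macrophages at 3.21, 4.34 and 1.75 CPM. The groups stood far apart in both experiments, with a 7.86-fold difference in HSC-KO (log2 fold change -2.98, SE 0.15, BH-adjusted p = 4.8e-05 in edgeR's test) and a 17.1-fold difference in Smad4 cKO macrophages (-4.09, SE 0.32, BH-adjusted p = 0.00056 in edgeR's test). The 2 differences were 1.17 apart (SE 0.34), which was not called by edgeR's interaction test (BH-adjusted p = 0.10) and was called by DESeq2 (1.10, BH-adjusted p = 0.032).

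In whole livers, where the macrophage markers fell, *Il1rn* was not called. It was at 3.10, 8.87 and 8.32 CPM in control livers and at 8.14, 10.2 and 2.12 CPM in HSC-KO livers, where the groups overlapped with 1 low library in each (log2 fold change 0.02, 95% interval -1.35 to 1.38, BH-adjusted p = 1 in edgeR's test). The sign of this value changed with the scaling and with the libraries included. ECs held 27, 32 and 30 counts of *Il1rn* in controls and 8, 0 and 0 counts in HSC-KO mice, a difference that was not called (-3.73, BH-adjusted p = 0.079 in edgeR's test). DESeq2 called it (-3.83, BH-adjusted p = 0.031), as did edgeR without HSC-KO EC replicate 1 (BH-adjusted p = 0.013), where no count was left in HSC-KO ECs.

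*Il1b* (chr2:129364570-129371139, minus strand), which encodes the secreted IL-1β, was the second most abundant of the transcripts per length in control macrophages, at 273 ± 86.2 CPM per kilobase. It was at 453, 709 and 402 CPM in control and at 70.1, 542 and 324 CPM in HSC-KO macrophages. HSC-KO replicate 1 stood far below the other two, the groups overlapped, and the log2 fold change of -0.74 had a 95% interval from -2.17 to 0.69 (BH-adjusted p = 0.45 in edgeR's test). Without that library it was -0.27 and without HSC-KO replicate 2 it was -1.41, neither of them called. In the Smad4 experiment, *Il1b* was at 134, 149 and 265 CPM in controls and at 21.5, 20.7 and 49.2 CPM in Smad4 cKO macrophages. These groups did not overlap, and the transcript was 6.00-fold lower (-2.59, SE 0.42, BH-adjusted p = 0.01 in edgeR's test). Without Smad4 cKO replicate 1, this call was lost (log2 fold change -2.39, BH-adjusted p = 0.052 in edgeR's test). It was also not made by glmTreat against a log2 fold change of 1 (BH-adjusted p = 0.061). The change in HSC-KO macrophages differed from that in Smad4 cKO macrophages by 1.89 (95% interval 0.07 to 3.70), which was not called (BH-adjusted p = 0.28 in edgeR's interaction test).

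*Il1a* (chr2:129299610-129309972, minus strand), which encodes the IL-1α that stays largely with the cell, was the only member called in macrophages, ECs and livers of HSC-KO mice. In macrophages it was at 6.58, 4.78 and 6.81 CPM in controls and at 1.5, 2.41 and 1.38 CPM in HSC-KO mice. The groups did not overlap, and the transcript was 3.43-fold lower (log2 fold change -1.78, SE 0.31, BH-adjusted p = 0.0068 in edgeR's test), a call that glmTreat against a log2 fold change of 1 did not make (BH-adjusted p = 0.076). ECs of control mice held more of it than control macrophages, at 15.7, 38.0 and 18.1 CPM, and HSC-KO ECs held 0.721, 0.223 and 0 CPM, from 68, 16 and 0 counts. Its level in ECs was thus 73.6-fold lower by the fit (-6.20, SE 1.00, BH-adjusted p = 0.005 in edgeR's test). With 1 library left out the call was kept, and the log2 fold change ranged from -7.79, without HSC-KO EC replicate 1, to -5.63. Livers held 4.83, 5.30 and 3.77 CPM in controls and 0.228, 0.309 and 0.125 CPM in HSC-KO mice, a 20.7-fold difference without overlap (-4.37, SE 0.39, BH-adjusted p = 0.0019 in edgeR's test). The fall in ECs was larger than that in macrophages by 4.44 on the log2 scale (SE 1.12, BH-adjusted p = 0.022 in edgeR's interaction test). That call was lost without control macrophage replicate 2, control EC replicate 2 or HSC-KO EC replicate 2 (BH-adjusted p = 0.052, 0.06 and 0.056 in the same test), and without HSC-KO EC replicate 1 the difference was 6.01.

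In Smad4 cKO macrophages *Il1a* was at 3.39, 1.39 and 2.42 CPM, against 4.51, 3.42 and 5.03 CPM in Smad4FF. The groups did not overlap, but the log2 fold change of -0.85 (95% interval -1.66 to -0.04) was not called (BH-adjusted p = 0.21 in edgeR's test). EC transcripts were present in these libraries. The summed level of 8 EC markers was 487 to 1748 CPM in Smad4FF and 1338 to 1683 CPM in Smad4 cKO macrophages, between 3.55% and 12.7% of its level in control ECs. At that share, control ECs would bring 0.849 to 3.05 CPM of *Il1a* into the Smad4FF libraries and 2.33 to 2.93 CPM into the Smad4 cKO libraries. In Smad4 cKO replicate 2 this amount, 2.73 CPM, exceeded the measured 1.39 CPM, so the estimate does not hold for that library. The part of ECs in these levels was not tested. In the HSC-KO experiment, the same markers reached 50.2 to 241 CPM in control and 11.4 to 56.1 CPM in HSC-KO macrophages, and the corresponding amounts of *Il1a* were at most 0.420 CPM. In the exons of *Il1a*, 11.2% of the bases overlap *Gm14023* on the other strand.

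The 2 agonist transcripts also differed in where they were found. In control ECs *Il1a* exceeded *Il1b* by a ratio of 33.4 ± 11.4 per kilobase, whereas in control macrophages the ratio was 0.0123 ± 0.00515. *Il1b* in ECs was low, at 35, 52 and 61 counts in controls and 5, 0 and 7 counts in HSC-KO mice (0.427, 0.841 and 0.828 against 0.0530, 0 and 0.0856 CPM). The groups did not overlap and the difference was called (log2 fold change -3.85, SE 0.98, BH-adjusted p = 0.03 in edgeR's test), but the adjusted p lay at 0.057 to 0.089 in 5 of the 6 fits that left out 1 library. Macrophage transcripts moved with it. The 8 macrophage and KC markers summed to 30.6 to 34.8 CPM in control ECs and 1.04 to 2.97 CPM in HSC-KO ECs, with 5 of 7 tested markers lower DEGs. In the control ECs this was 0.0827% to 0.0941% of the level in control macrophages, a share that would bring 0.431 to 0.491 CPM of *Il1b*, 0.0702 to 0.0799 CPM of *Il1rn* and at most 0.00570 CPM of *Il1a*. The measured *Il1b* was below its implied amount in control EC replicate 1 (0.427 against 0.491 CPM) and above it in replicates 2 and 3 (0.841 against 0.431 and 0.828 against 0.450 CPM). In HSC-KO ECs the share of HSC-KO macrophages implied 0.0583, 0.167 and 0.0843 CPM of *Il1b*, against the measured 0.0530, 0 and 0.0856 CPM. The part of macrophage transcripts in these levels was not tested.

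Taking *Il1a*, *Il1b* and *Il1rn* as 1 system, the antagonist transcript was scarce beside the agonists in macrophages. The ratio of *Il1rn* to the sum of *Il1a* and *Il1b* was 0.0572 ± 0.00861 in control and 0.0235 ± 0.0247 in HSC-KO macrophages, with overlap (p = 0.2 in a two-sided exact permutation test). It was 0.106 ± 0.0303 in Smad4FF and 0.0415 ± 0.0282 in Smad4 cKO macrophages, without overlap. In livers it moved the other way, from 0.305 ± 0.191 in controls to 1.94 ± 0.143 in HSC-KO mice, also without overlap (p = 0.1 for each, the smallest an exact test allows here). The rise in livers came with lower agonist levels beside an *Il1rn* level that overlapped between the groups. *Il1b* itself was at 4.24, 5.28 and 2.08 CPM in control and 1.11, 1.62 and 0.265 CPM in HSC-KO livers, without overlap and not called (log2 fold change -1.95, SE 0.63, BH-adjusted p = 0.22 in edgeR's test). DESeq2 called it (BH-adjusted p = 0.016).

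Across the liver comparison, *Il1a* was the 1 DEG among 8 of the 10 genes that could be tested, with *Il6* and *Il10* too low. Of 17118 genes, 1.45% were lower and 1.03% higher DEGs. Without overlap between the groups were 3 of these genes, *Il1a*, *Il1b* and *Il18bp*, against 19.7% of all genes tested, and the median log2 fold change of the 8 genes was -0.55, against -0.01 for all genes. The macrophage and KC markers summed to 309 to 549 CPM in control and 29.1 to 42.0 CPM in HSC-KO livers, whereas the EC markers summed to 304 to 377 and 320 to 374 CPM. Other sums also stood apart, with stellate markers at 179 to 243 and 353 to 386 CPM, hepatocyte markers at 99670.4 to 122534 and 125238 to 168833 CPM and B cell markers at 3.79 to 7.96 and 1.48 to 1.98 CPM. The part of any of these cell types in the liver levels of *Il1a*, *Il1b* and *Il18bp* was not tested. In ECs, 4 of the 10 genes were tested and 2 were DEGs, *Il1a* and *Il1b*, both lower. Of 16053 genes, 6.01% were lower and 7.68% higher DEGs. The groups of *Il1a*, *Il1b* and *Il1rn* did not overlap, as for 40.4% of all genes tested. These 3 passed the filter through the control ECs alone, the group in which they were high, and nothing is read from their count.

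*Il6* (chr5:30013114-30019981, plus strand), an inducer of the acute phase response, was nearly lost from HSC-KO macrophages. It had 396, 398 and 220 counts in control macrophages (4.68, 4.69 and 3.84 CPM) and 0, 0 and 9 counts in HSC-KO macrophages. In Smad4FF macrophages it was at 2.39, 1.34 and 1.60 CPM and in Smad4 cKO macrophages at 0.0824, 0.112 and 0.358 CPM, from 8, 13 and 30 counts. In neither experiment did the groups overlap (log2 fold change -7.0, SE 1.07, BH-adjusted p = 0.0039 for HSC-KO and -3.28, SE 0.61, BH-adjusted p = 0.018 for Smad4 cKO in edgeR's test). Without HSC-KO replicate 3, which held all 9 counts, the first value was -11.50, a size that is no bound, and without Smad4 cKO replicate 3 the second was -4.17. The second call was lost without Smad4FF replicate 1, Smad4FF replicate 3 or Smad4 cKO replicate 1 (BH-adjusted p = 0.062, 0.063 and 0.062). It was also not made by glmTreat against a log2 fold change of 1 (BH-adjusted p = 0.075). The 2 differences were -3.69 apart (SE 1.23), not called by edgeR (BH-adjusted p = 0.15) and called by DESeq2 (BH-adjusted p = 0.0069). In ECs and livers, *Il6* had at most 12 counts in any library.

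*Osm* (chr11:4236420-4241026, plus strand), which encodes oncostatin M, was the member that rose in macrophages of both mutants. It had 16, 25 and 7 counts in control and 1242, 1336 and 932 counts in HSC-KO macrophages (0.189, 0.294 and 0.122 against 14.1, 14 and 10.2 CPM). The Smad4 libraries had 4, 28 and 15 counts in controls and 281, 535 and 265 counts in Smad4 cKO macrophages (0.0412, 0.310 and 0.145 against 2.89, 4.61 and 3.16 CPM). Each mutant library was above each control library, and the fitted difference between the groups was 61.6-fold in HSC-KO (log2 fold change 5.95, SE 0.36, BH-adjusted p = 8.3e-05 in edgeR's test) and 21.5-fold in Smad4 cKO macrophages (4.43, SE 0.64, BH-adjusted p = 0.0061 in edgeR's test). Without Smad4FF replicate 2 the latter log2 fold change was 5.21. The 2 rises were 1.57 apart (95% interval 0.01 to 3.14, BH-adjusted p = 0.30 in edgeR's interaction test). *Osm* did not exceed 14 counts in ECs and 25 counts in livers, and the liver difference was not called (1.03, 95% interval -1.93 to 4.0).

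Lymphocyte transcripts rose in the HSC-KO macrophage libraries as well. The 6 T cell markers summed to 12.5 to 27.8 CPM in control and 147 to 225 CPM in HSC-KO libraries, with 5 of the 6 higher DEGs, and the 5 NK cell markers to 3.77 to 4.58 and 18 to 49.9 CPM, with 4 of the 5 higher DEGs. The T cell sum was mostly *Cd4*, at 13.2 ± 5.53 and 147.9 ± 30.9 CPM. *Cd3e* was at 0.185 ± 0.226 and 2.39 ± 1.52 CPM, and the means of the remaining T cell markers were also higher in HSC-KO libraries. In the Smad4 experiment the T cell sums overlapped (28.5 to 81.5 CPM in controls and 36.9 to 130 CPM in Smad4 cKO), as did the NK cell sums (17.6 to 25.9 and 12 to 57.3 CPM). The 5 B cell markers summed higher without overlap in both mutants (64.7 to 105 against 164 to 197 CPM in the HSC-KO and 99.5 to 155 against 214 to 219.9 CPM in the Smad4 experiment), with 1 higher DEG in each. That sum was mostly *Cd79b*, at 74.1 ± 21.6 and 175 ± 16.5 CPM and at 84.8 ± 25.3 and 193 ± 10.9 CPM, while the means of the other 4 markers were lower in both mutants. The part of lymphocytes in the level of *Osm* was not tested. The 9 neutrophil markers summed to 1.99 to 3.79 CPM in control and 0.0734 to 2.11 CPM in HSC-KO macrophages. Of 5 tested monocyte markers, 3 were higher and 1 lower DEGs in HSC-KO macrophages. From controls to mutants, the chemokine receptor gene *Ccr2* went from 6.82 ± 2.71 to 66.9 ± 29.1 CPM, with *F13a1* at 0.377 ± 0.235 and 32.4 ± 8.51 CPM, and *Ly6c2* at 0.420 ± 0.211 and 2.80 ± 1.96 CPM. *Plac8* went the other way, from 131 ± 50.4 to 6.27 ± 5.38 CPM, and its weight made the sums of the 7 markers overlap (94.4 to 189 and 83.0 to 127 CPM). In Smad4 cKO macrophages 1 of 6 tested monocyte markers was a lower DEG, and the lower sum there (138 to 176 against 13.6 to 28.2 CPM) was mostly *Plac8*, at 132 ± 17.2 and 8.13 ± 3.51 CPM. The part of monocytes in the cytokine levels was not tested.

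*Tnf* (chr17:35199381-35202007, minus strand), the tumour necrosis factor gene, had low counts throughout. It was at 1.23, 0.365 and 1.99 CPM in control and at 2.38, 2.25 and 2.73 CPM in HSC-KO macrophages. The groups did not overlap, but the log2 fold change of 1.04 had a 95% interval from -0.27 to 2.35 and was not called (BH-adjusted p = 0.24 in edgeR's test). Smad4FF and Smad4 cKO groups overlapped, at 0.368 to 0.443 CPM in controls against 0.319 to 0.394 CPM in Smad4 cKO macrophages (-0.17, 95% interval -1.08 to 0.73). Livers held 0.177 to 0.456 and 0.0557 to 0.262 CPM and ECs at most 29 counts.

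*Il12b* (chr11:44400063-44414033, plus strand), which encodes the p40 chain shared by IL-12 and IL-23, was called in no comparison. Its levels were 1.51, 0.695 and 1.07 CPM in control and 0.695, 0.461 and 4.03 CPM in HSC-KO macrophages. HSC-KO replicate 3 stood alone, and this library also had the highest sum of 6 dendritic cell markers, at 36.1 CPM against 17.0 and 19.5 CPM in the other two and 6.95 to 11.2 CPM in controls. The log2 fold change was 0.66 (95% interval -1.23 to 2.55) with this library and -0.91 without it. The same library also had the highest endothelial, stellate, hepatocyte and monocyte marker sums of its group, at 56.1, 96.9, 465 and 127 CPM. The T cell, NK cell, B cell, neutrophil and macrophage sums were highest in other libraries of the group. The part of any of these cell types in the level of *Il12b* was not tested. Smad4FF and Smad4 cKO levels were 0.680 to 1.64 CPM and 0.525 to 0.775 CPM, with overlap (-0.61, 95% interval -1.61 to 0.40).

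*Il10* (chr1:131019845-131024974, plus strand) had no count in any EC or liver library, and among macrophages it was called in HSC-KO mice. The transcript of this anti-inflammatory cytokine was at 6.13, 9.06 and 6.99 CPM in control and at 2.47, 3.43 and 2.33 CPM in HSC-KO macrophages. These groups did not overlap, with a 2.69-fold lower level in HSC-KO (log2 fold change -1.43, SE 0.26, BH-adjusted p = 0.0083 in edgeR's test). Tested against a log2 fold change of 1 with glmTreat, it was not called (BH-adjusted p = 0.22). In the Smad4 experiment the levels were 2.84, 4.15 and 2.50 CPM in controls and 1.60, 2.82 and 4.08 CPM in Smad4 cKO macrophages, with overlap and a log2 fold change of -0.16 (95% interval -1.04 to 0.72). The difference between the 2 changes was -1.22 (95% interval -2.28 to -0.17) and was not called (BH-adjusted p = 0.23 in edgeR's interaction test).

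The sum of 12 dissociation and early response genes was 594 to 1299.8 CPM in control and 465 to 781 CPM in HSC-KO macrophages, and 419.6 to 703 CPM in Smad4FF and 386 to 1004 CPM in Smad4 cKO macrophages. The groups overlapped in both experiments. HSC-KO replicate 1, in which *Il1b* was lowest, had the highest sum of its group, and Smad4 cKO replicate 3, in which *Il1b* was highest, had the highest of its group. The part of these genes in the levels of *Il1b*, *Il6* and *Tnf* was not tested.

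The order of the transcripts per length showed what these changes amounted to within a cell population. In control macrophages the CPM per kilobase fell from *Il18bp* (448) and *Il1b* (273) through *Il18* (63.2) and *Il1rn* (15.3) to *Il10* (5.65), *Il1a* (3.07), *Il6* (1.81), *Tnf* (0.729), *Il12b* (0.555) and *Osm* (0.0889). *Tnf* and *Il12b* did not differ beyond their spread. In HSC-KO macrophages *Il1b* (164 ± 124) and *Il18* (41.7 ± 7.83) came before *Il18bp* (21.1 ± 4.86), and *Osm* (5.63 ± 0.984) followed these, while *Il6* (0.0135) was last. In Smad4 cKO macrophages *Il18* (52.2 ± 4.69) led, followed by *Il18bp* (36.9 ± 4.0) and *Il1b* (16.0 ± 8.50), and *Il6* (0.0759) was again last. Control ECs held mainly *Il1a* (12.1 ± 6.19) and *Il18bp* (11.4 ± 1.14), which did not differ beyond their spread, and control livers *Il18* (5.52 ± 0.973) and *Il18bp* (5.09 ± 0.903).

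Receptors, processing enzymes, signalling proteins and other cytokines of these pathways were examined as 5 lists of 83 genes. In HSC-KO macrophages 13 of 71 tested genes were DEGs, 11 higher and 2 lower, beside 6.32% higher and 5.34% lower among all genes. Among 16 receptor genes, 4 were higher, including *Il1rl1*, the IL-33 receptor (log2 fold change 5.34, SE 0.88, BH-adjusted p = 0.0053), *Il12rb1* (2.29, SE 0.37, BH-adjusted p = 0.0052) and *Lifr*, a partner of gp130 (2.25, SE 0.28, BH-adjusted p = 0.0015 in edgeR's test). *Lifr* rose from 32.6 ± 8.53 to 155 ± 47.9 CPM. Of 14 genes of cytokine processing, the inflammasome sensors *Nlrp1b* (1.34) and *Nlrc4* (1.14) and the ATP-gated channel *P2rx7* (1.05) were higher. The pyrin gene *Mefv*, also an inflammasome sensor, was lower (27.8 ± 4.32 against 4.44 ± 0.799 CPM, log2 fold change -2.64, SE 0.20, BH-adjusted p = 0.00022 in edgeR's test).

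Among the 17 genes of NF-kB and feedback in the same macrophages, *Socs3*, an inhibitor of gp130 signalling, was higher (1.25, SE 0.22, BH-adjusted p = 0.0077) and the phosphatase gene *Dusp1* lower (-1.81, SE 0.46, BH-adjusted p = 0.031 in edgeR's test). Of 9 other cytokines, *Ltb* (2.31), *Clcf1* (1.96) and *Il16* (1.42) were higher. *Ltb* is also made by lymphocytes, whose markers rose in these libraries. None of 15 signal transduction genes was a DEG in edgeR's test, in which 6 had an unadjusted p below 0.05, and DESeq2 called 1, *Stat4*.

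In Smad4 cKO macrophages, 3 of 74 tested genes of the lists were DEGs, 2 higher and 1 lower, beside 2.76% and 2.67% of all genes. *Mefv* fell further than in HSC-KO macrophages, from 21 ± 4.60 to 0.443 ± 0.143 CPM (log2 fold change -5.57, SE 0.33, BH-adjusted p = 0.00014 in edgeR's test), and the 2 changes differed by 2.98 (SE 0.37, BH-adjusted p = 0.0016 in edgeR's interaction test). *Clcf1* (1.32, SE 0.24, BH-adjusted p = 0.017) and *Il16* (1.29, SE 0.21, BH-adjusted p = 0.01 in edgeR's test) were higher, as in HSC-KO macrophages. In livers none of 70 tested genes was a DEG in edgeR's test, in which 12 had an unadjusted p below 0.05, and DESeq2 called 1, *Naip5*.

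**Figure D4:**
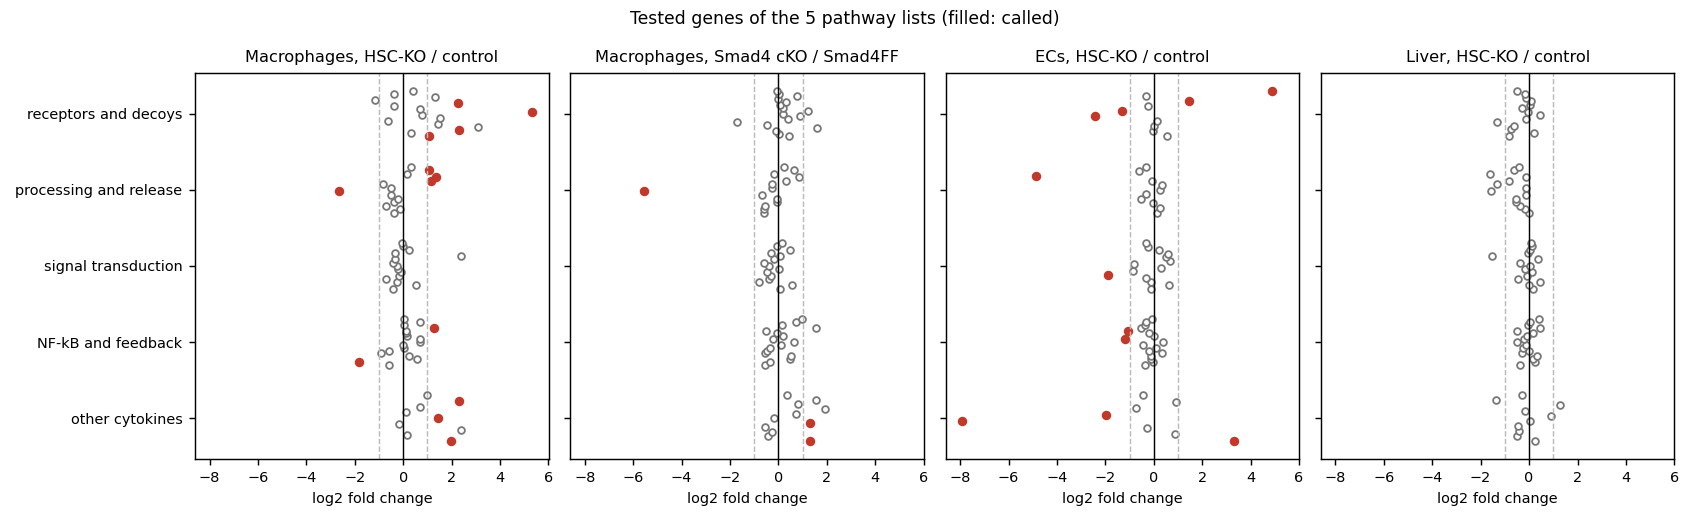
Log2 fold changes of the tested genes of the 5 pathway lists in the 4 comparisons. Each circle is 1 gene, filled circles are DEGs and dashed lines mark log2 fold changes of -1 and 1. Of the filled circles, 13 are in HSC-KO macrophages, 3 in Smad4 cKO macrophages, 11 in ECs and none in livers.

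Of 60 tested genes of the lists, 8 were lower and 3 higher DEGs in HSC-KO ECs, where 6.01% and 7.68% of all genes were. The receptor list had 2 higher and 2 lower DEGs among 10 tested genes. *Il6st*, which encodes gp130, fell from 1572 ± 42.7 CPM in control to 291 ± 126 CPM in HSC-KO ECs (log2 fold change -2.43, SE 0.31, BH-adjusted p = 0.0017 in edgeR's test). *Jak1*, a kinase that gp130 uses, fell from 1975 ± 128 to 534 ± 93.3 CPM (-1.89, SE 0.19, BH-adjusted p = 0.00063), and *Lifr* from 1177 ± 332 to 469 ± 232 CPM (-1.33, SE 0.37, BH-adjusted p = 0.042 in edgeR's test). *Lifr* thus moved in opposite directions in macrophages and ECs, and the difference was 3.58 (SE 0.53, BH-adjusted p = 0.0011 in edgeR's interaction test). The TNF receptor gene *Tnfrsf1b* was higher (0.782 ± 0.234 against 22.7 ± 12.5 CPM, 4.86, SE 0.46, BH-adjusted p = 0.00045) and so was *Sigirr*, a negative regulator of IL-1 receptors (35.3 ± 2.74 against 96.0 ± 10.9 CPM, 1.44, SE 0.14, BH-adjusted p = 0.00044 in edgeR's test). *Il33*, the ligand of the *Il1rl1* product, was lower (37.3 ± 15.6 against 9.56 ± 1.90 CPM, -1.97, SE 0.33, BH-adjusted p = 0.0056) and *Clcf1* higher (3.31, SE 0.67, BH-adjusted p = 0.012 in edgeR's test). *Nlrc4* (-4.86), *Rel* (-1.20) and *Socs1* (-1.07) were lower, and *Il23a* had 19 to 36 counts in control and none in HSC-KO ECs. Both monocyte markers tested in ECs were higher DEGs, *Ly6c2* (0.148 ± 0.0521 against 68.8 ± 7.56 CPM) and *Plac8* (11.9 ± 1.43 against 26.2 ± 11.5 CPM), and their part in these differences was not tested.

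The change in HSC-KO macrophages differed from that in HSC-KO ECs for 4 of the 10 cytokines, *Il1a*, *Il6*, *Il18bp* and *Osm*, against 12.3% of 18213 genes in edgeR's interaction test. *Il6* and *Osm* passed the filter through macrophages alone and were too low to be tested in ECs, so nothing is read from the count of 4. The *Il6* call was lost without HSC-KO EC replicate 2 (BH-adjusted p = 1). DESeq2 called 6 of the 10, with *Il1b* (3.11, BH-adjusted p = 0.008) and *Tnf* (5.26, BH-adjusted p = 0.018) added. Of the 72 tested genes of the lists, 16 differed, 13 of them with the more positive change in macrophages. Among receptors, the log2 difference was 3.58 for *Lifr*, 2.07 for *Il6st* and -4.45 for *Tnfrsf1b*. Among processing and signalling genes it was 5.94 for *Nlrc4*, which had at most 6 counts in HSC-KO ECs, 1.69 for *P2rx7* and 1.73 for *Jak1*. The feedback genes *Rel* (1.90), *Socs3* (1.81) and *Tnip1* (1.01, not called by DESeq2) and the cytokine genes *Il16* (1.72) and *Il15* (-1.04) were called as well. So were *Il10ra* and *Ebi3*, too low to be tested in ECs alone, and *Il23a*, without a count in HSC-KO ECs, and no size is given for these 3. DESeq2 called 20 genes of the lists, among them *Dusp1* and *Nfkbia* of the feedback genes.

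Finally, genes whose pattern over the 12 macrophage libraries was most like that of each cytokine were listed among 8179 genes whose log2 CPM averaged 3 or more. The points share the design of 4 groups in 2 experiments, so the Pearson correlations are given as a description. *Il18bp* was most alike to *C6* (r = 0.993), *Apoc1* (0.988) and *Slc16a9* (0.985), *Il1rn* to *Art2b* (0.990), *Itgal* (0.987) and *Csf2rb* (0.973), and *Il6* to *Sod2* (0.984), *Pcolce2* (0.984) and *Fam84a* (0.974). *Osm* was most alike to *Pparg* (0.977), *Gm15503* (0.974) and *Tmx4* (0.973). *Il1b* followed *Clec12a* (0.929) and *Gm6768* (0.927), and *Il1a* followed *Cops5* (0.950), *Rnf157* (0.924) and *Itsn1* (0.924). The closest genes were at 0.960 for *Tnf* (*Bbip1*), 0.893 for *Il10* (*Tceb1*) and 0.732 for *Il12b* (*Pip5k1a*). Among the 10 cytokines themselves, *Il18bp* and *Il6* had r = 0.929, and *Osm* had r = -0.955 with *Il18bp* and -0.934 with *Il6*.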

How the data were processed

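Sorted macrophages, ECs and livers were sequenced as bulk RNA. After FastQC, HISAT2 was used by the authors for alignment to mm10 (GRCm38), and they counted the reads with featureCounts and deposited raw counts per gene symbol in 4 tables; versions, annotation and strand use are not given in the sources used here. For the library kit, the methods and the labels name different products. No pair of replicates was identical, and labels assigned every library to its group.

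Genes were filtered with filterByExpr (at least 10 counts and 15 in total), normalised by TMM and tested with edgeR 4.0.16's quasi-likelihood test in R 4.3.3 (limma 3.58.1), with the 6 libraries of each comparison and no covariate. BH adjustment covered all tested genes. The SE is the log2 fold change divided by the square root of F, and intervals are at 95%. Interactions used 12 libraries. CPM were set per table with TMM factors; levels set side by side across tables were thus scaled separately. Exon lengths came from GENCODE vM21, in which 46443 of 48574 symbols (95.6%) were found. The fits were tested on simulated data. The 3-count limit covers counting error only.

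The 10 genes were named in all comparisons. Of each pathway list, up to 3 DEGs with the largest rise and 3 with the largest fall per comparison were named, along with the 3 genes most alike to each cytokine, except for a few genes that are not reported here. The members and lists were chosen with earlier results of these data known. Alternatives were DESeq2 1.42.0, its size factors, library size alone, other filters, glmTreat, each library left out, a replicate block, *Xist* as a covariate and the animal as a block. Figures were drawn with matplotlib 3.10.9 in Python 3.11.15.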

Additional observations from a re-analysis of the deposited data

Results flagged for a closer look

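The change in HSC-KO macrophages differed from that in HSC-KO ECs, by edgeR's interaction test, for 4 of the 10 cytokine genes, against 12.3% of all 18213 genes tested. Among them, *Osm* and *Il6* passed the filter through macrophages alone and were too low to be tested in ECs, so nothing is read from this count. *Il1a* differed by 4.44 on the log2 scale (BH-adjusted p = 0.022), since it was 3.43-fold lower in macrophages and 73.6-fold lower in ECs. Without HSC-KO EC replicate 1 the difference was 6.01, and the log2 fold change in ECs alone was -7.79 in place of -6.20. *Il18bp* differed by -4.56 (BH-adjusted p = 6e-06), with a fall in macrophages beside overlapping levels of 31.4 to 38.2 and 33.4 to 46.9 CPM in ECs. *Osm* differed by 11.61 (BH-adjusted p = 0.0013). HSC-KO ECs had no *Osm* count and control ECs 4, 0 and 14 counts, so that the size of this value depends on the fit and is no bound. With so few EC counts, the call rests on the rise in macrophages and shows no measured difference between the cell types. *Il6* differed by -12.03 (BH-adjusted p = 0.022), a size of the same kind, because control ECs had no *Il6* count and the HSC-KO ECs 12 counts in 1 library. Without that library, HSC-KO EC replicate 2, the adjusted p was 1.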

How the results depend on the processing

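The number of DEGs among the 10 cytokines in HSC-KO macrophages was 6 in each fit that left out 1 library and at least 4 under the other alternatives. With glmTreat, *Il1a* and *Il10* were the calls lost. With at least 10 counts in every library, *Il6* and *Osm* could not be tested. In Smad4 cKO macrophages the number was 3 to 5 with 1 library left out and 3 with at least 10 counts in every library or with glmTreat, against 5. The former filter left *Il6* and *Osm* untested, and glmTreat lost the calls of *Il1b* and *Il6*. In ECs the number was 1 to 2 with 1 library left out, 0 with at least 10 counts in every library, where 1 of the genes could be tested, and 1 with glmTreat, with *Xist* as a covariate or with the replicate block, against 2. In these last 3, *Il1b* was the call lost, and DESeq2 called 3, with *Il1rn* added. In livers the number was 1 to 2 with 1 library left out, 3 with DESeq2 and 0 with at least 10 counts in every library, against 1. *Il1a*, with 9 counts in HSC-KO liver replicate 3, was not tested under that filter. The difference between the mutants had 0 to 1 calls with 1 library left out and 2 with DESeq2, against 0, and that between macrophages and ECs had 3 to 5 calls with 1 library left out, 1 with at least 10 counts in every library and 6 with DESeq2, against 4. Between macrophages and ECs, *Il18bp* alone could be tested with at least 10 counts in every library. The log2 fold changes that changed sign were not called in any of these fits. They were *Il12b* in HSC-KO macrophages (-0.91) and in the difference between mutants (-0.26) without HSC-KO replicate 3, and in the difference between cell types (0.67) without HSC-KO EC replicate 2. Over all fits with 1 library left out, these 3 values reached 1.11, 1.77 and -4.42 at the other end. *Il18* in Smad4 cKO was -0.038 without Smad4FF replicate 1, and *Il10* 0.07 without Smad4FF replicate 2 and 0.12 without Smad4 cKO replicate 1, with a lowest value of -0.52. *Il1rn* in livers was -0.080 with library size alone, -0.079 with the replicate block, and -0.32, -0.13 and -0.40 without control replicate 1, HSC-KO replicate 1 and HSC-KO replicate 2, with a highest value of 0.44. Of the other single-gene values, 757 kept direction and side of the threshold, 22 lost and 15 gained a call. The cause was not tested.

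DEGs over all genes changed by more than 1.5 times with glmTreat (1904 to 906 in HSC-KO macrophages, 951 to 315 in Smad4 cKO, 2198 to 1096 in ECs, 425 to 142 in livers, 473 to 105 and 2244 to 980 in the differences between mutants and between cell types). With DESeq2 they were 794 in livers and 1033 in the difference between mutants. With 1 library left out, the lowest counts were 566 in Smad4 cKO, 188 in livers and 233 in the difference between mutants.

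Replicate numbers did not pair the samples. Same-numbered libraries had deviations correlated at -0.11 to 0.16, 3 of 12 above 0.1, and 7 of 12 correlated best with their own number. The replicate block gave 1 DEG among the cytokines in ECs, took the call of *Il6* in the difference between cell types (BH-adjusted p = 0.067 in edgeR's test), and gave 271 DEGs in livers and 299 in the difference between mutants. With the 3 shared mice as a block, 4 cytokines were called in that between cell types. The *Xist* covariate was not fitted for Smad4 cKO, where *Xist* varied too little.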
